A study of Homo sapiens with 2 samples.

Results

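CD44 is a cell-surface glycoprotein whose transcript was read by 13 probe sets on the Affymetrix array of this study, and all 13 were taken, as every probe set of the 54675 on the array that the platform annotation assigns to CD44. Of these, 10 were measured, meaning that their signal exceeded the median of all non-control probe sets (the floor) in at least 1 array. The study compared a culture of Calu-3 cells stretched for 18 h with a culture labelled with the same 18 h and no stretch, with 1 array for each. Calu-3 cells derive from a human adenocarcinoma of the lung and grow as tight, airway-like epithelial sheets. In the stretched culture, flexible collagen-coated plates were driven in a sine wave between 0.7% and 20% elongation, 2 s on and 2 s off. According to the labels both cultures came from cells grown to about 80% confluence (the design text calls them confluent) and kept in medium with 10% serum. Each condition is 1 culture of 1 cell line, so no difference below has a replicate, an SD between cultures or a test, and the number of arrays limits the precision. CD44 was chosen with its values in these arrays known, so its own differences are a description.

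CD44 binds hyaluronan, the long glycosaminoglycan of the pericellular matrix, and through its cytoplasmic tail it links the membrane to cortical actin by way of ezrin, radixin and moesin. Its transcript joins constant exons to variable exons that are spliced in or left out, so that epithelial cells carry longer variant forms and most leukocytes and fibroblasts the short standard form. The extracellular part can be shed by metalloproteinases, after which gamma-secretase releases the intracellular tail. RefSeq lists 44 transcripts for the gene. A probe set reads a short stretch of a transcript, and which exons each of the 13 probe sets covers is not given in the sources used here. Probe sets ending in _s_at hold probes shared by several transcripts, and those ending in _x_at hold probes that can also bind other sequences.

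The stretch of DNA from which CD44 transcription starts is shown because FOSL1, an AP-1 subunit, was among the genes with the largest differences, and AP-1 is a known regulator of CD44. The other AP-1 subunits read here, FOS, JUN, JUNB and JUND, were lower in the stretched array by their brightest probe set, each by less than 2-fold. A role of AP-1 in the CD44 values was not tested. The sequence is from RefSeq, build GRCh38.p14, plus strand, chr11:35138921-35139170, the 250 bases before the annotated start. The capitals mark the only 7 bases within 1 mismatch of the AP-1 letters TGAGTCA, read on both strands.
CD44 upstream: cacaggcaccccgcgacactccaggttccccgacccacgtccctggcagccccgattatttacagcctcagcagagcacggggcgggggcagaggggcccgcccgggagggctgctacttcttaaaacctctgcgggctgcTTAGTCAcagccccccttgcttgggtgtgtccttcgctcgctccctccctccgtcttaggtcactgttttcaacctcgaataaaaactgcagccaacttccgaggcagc
Those bases begin 109 bases before the start. A match within 1 mismatch was found in 40.5% of 35116 RefSeq windows of the same length, so it is common. The exact letters TGANTCA, found in 6.57% of the windows, were not in this one, nor were TATAAA (10.7%) or CCAAT (32.01%), while GGGCGG (42.6%) occurred at 2 places. The arrays measured no binding or activity at this sequence.

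Among the 10 measured probe sets, 9 were higher in the stretched array and 1 was lower. At least 2-fold higher were 6 of the 10, and none was at least 2-fold lower. Over all 29259 measured probe sets on the arrays, 8.43% were at least 2-fold higher and 6.25% were lower by as much, and nothing is read from the comparison because CD44 was chosen on these arrays. Those shares are 2466 probe sets up and 1830 down. Dividing each array by its 75th percentile lowers every difference by 0.11 on the log2 scale, and it turned this split to 2016 up and 2247 down and left 4 of the 10 CD44 probe sets at 2-fold or more. The median log2 difference of the 10, stretched minus non-stretched, was 1.08 (2.12-fold), against 0.04 over all measured probe sets. In such bulk RNA, more cells with the transcript and more transcript per cell cannot be told apart.

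The brightest probe set, 212063_at, had a signal intensity of 6518 in the stretched array and 5066 in the non-stretched array. This is 1.29-fold higher, or 0.36 on the log2 scale. The next, 204489_s_at, had 4128 in the stretched and 2903 in the non-stretched array, 1.42-fold higher. Both therefore stayed below 2-fold.

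The 4 probe sets that followed were close to a 2-fold difference. 209835_x_at had 3508 in the stretched and 1840 in the non-stretched array, 0.93 on the log2 scale, and lay just outside the 2-fold line. 212014_x_at had 2941 in the stretched and 1398 in the non-stretched array, 1.07 on the log2 scale, and lay just inside it. These are the only measured CD44 probe sets ending in _x_at, and they differed from each other by 0.14 on the log2 scale. 204490_s_at had 2609 in the stretched and 1208 in the non-stretched array, 2.16-fold higher. 1557905_s_at had 2138 in the stretched and 1005 in the non-stretched array, 2.13-fold higher.

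The largest differences of the 10 were found in dimmer probe sets. 210916_s_at had 1420 in the stretched and 603.6 in the non-stretched array, 2.35-fold higher. 229221_at had 784.5 in the stretched and 184.9 in the non-stretched array, which at 4.24-fold was the widest gap. 217523_at had 134.2 in the stretched and 32.5 in the non-stretched array, 4.13-fold higher, but its signal without stretch barely cleared the floor of 28.7, so the size of this fold is uncertain.

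The 1 measured probe set that went the other way was 1565868_at, with 42.2 in the stretched and 49.0 in the non-stretched array, -0.22 on the log2 scale. Both signals were within 2-fold of the floor. The 3 probe sets below the floor in both arrays gave no usable fold. 234418_x_at had 9.68 in the stretched and 14.8 in the non-stretched array, 234411_x_at had 14.7 in the stretched and 5.12 in the non-stretched array, and 216056_at had 1.16 in the stretched and 13.2 in the non-stretched array. Without a floor they would have stood at -0.62, 1.52 and -3.51 on the log2 scale, which shows how far differences scatter at such signals.

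**Figure D1:**
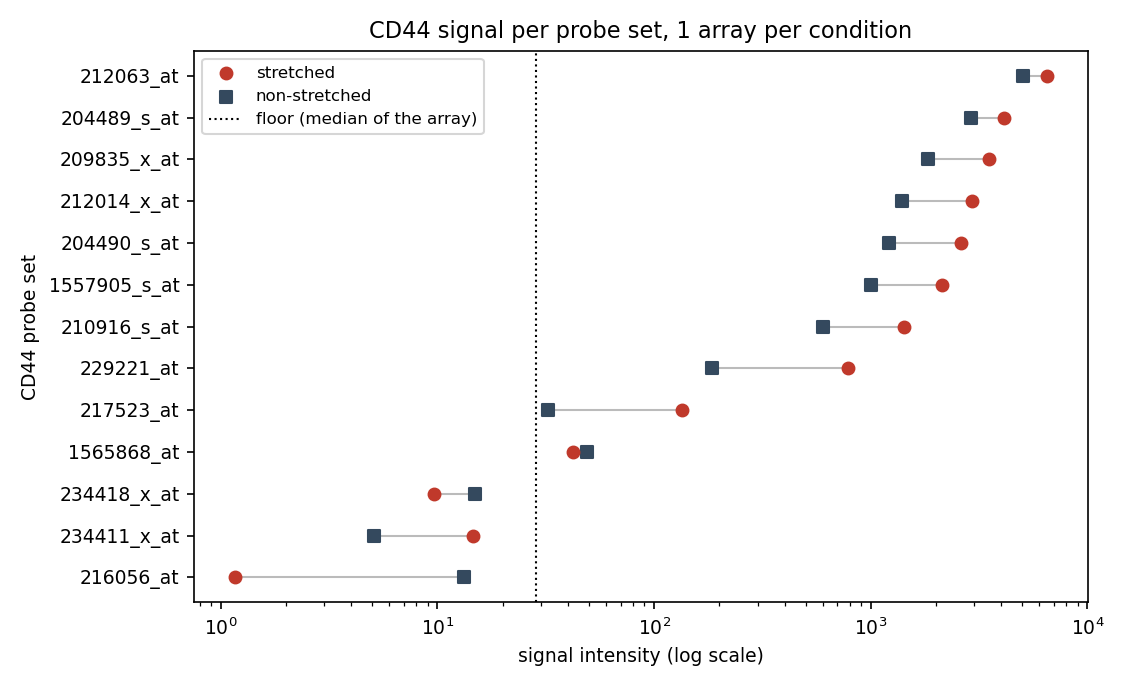
Signal intensity (log axis) of the 13 CD44 probe sets, ordered by mean signal, in the stretched array (circles) and the non-stretched array (squares), 1 array each; the dotted line is the median of the stretched array, 28.4. Among the probe sets higher in the stretched array and above the line, the horizontal gap, which is the fold, is narrowest at the top (1.29-fold in 212063_at) and widest in 229221_at and 217523_at (4.24-fold and 4.13-fold); in 1565868_at the order of the 2 arrays is turned.

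The size of the difference went with signal level. In the 7 probe sets with a signal over 500 in both arrays, the difference tended to be smaller the brighter the probe set. Between mean log2 signal and log2 difference, Pearson's r was -0.94 and Spearman's rho was -0.96. The slope was -0.36 log2 units of difference for each log2 unit of signal. Without the 2 of these probe sets farthest from their median signal, r was -0.91. The subset was chosen after the values were seen, and the points share both arrays, the scaling and the target gene, so this is a description. Over all 10 measured probe sets r was -0.17 and rho -0.43, because 1565868_at is both dim and not higher in the stretched array. Without that probe set r was -0.92 over 9, and without the 2 farthest from the median signal, 1565868_at and 217523_at, it was -0.97 over 8. With a lower floor r turned positive, since the probe sets below the floor then enter.

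In plain intensity the picture was flatter than in folds. The stretched signal exceeded the non-stretched one by 815.9 to 1668 units in those 7 probe sets, a 2.04-fold range, while their non-stretched signals covered an 8.39-fold range, from 603.6 to 5066. Intensities of different probe sets do not measure relative abundance, since each has its own affinity and background. The order of the 10 probe sets was nearly the same in both arrays: 8 held the same rank, and the remaining 2, 217523_at and 1565868_at, changed places at the dim end.

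Over all measured probe sets, large differences were rarer at higher signal from a mean signal of 64 upward. Between 64 and 256, 12.9% of 7950 probe sets were at least 2-fold higher in the stretched array and 9.76% were lower by as much. The shares were 10.2% higher and 6.59% lower of 7569 between 256 and 1024, 5.35% and 3.81% of 2806 between 1024 and 2048, and 2.70% and 2.14% of 1775 between 2048 and 4096. Below 64, where values at the floor hold differences down, they were smaller again, 5.80% higher and 4.94% lower of 8116. Above 4096, where 212063_at lies, 0.19% of 1043 were higher and 0.86% lower, and the central 90% of differences lay between -0.50 and 0.45 on the log2 scale. CD44's brightest probe set, at 0.36, was inside that range, and so was 204489_s_at within its own signal range (-0.75 to 0.83). Of the 10 measured CD44 probe sets, 6 lay outside the central 90% of their signal range, all on the high side. CD44 was chosen on these arrays, so nothing is read from this count. Whether signals near the top of the scale were compressed was not tested.

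**Figure D2:**
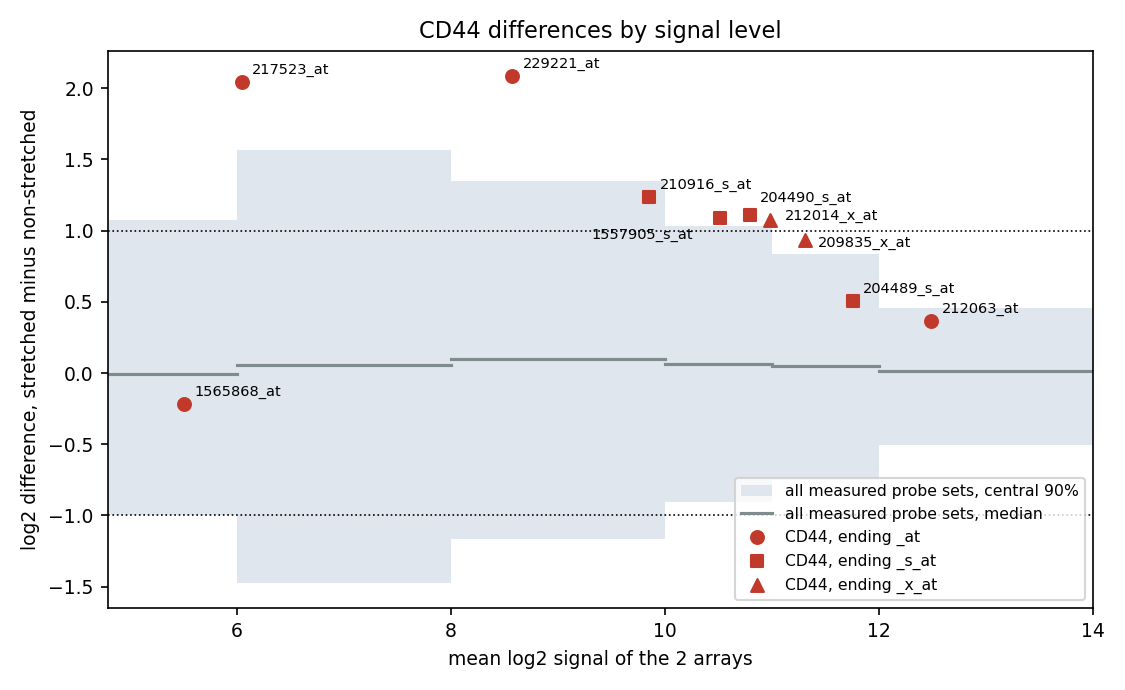
Log2 difference (stretched minus non-stretched) of the 10 measured CD44 probe sets against their mean log2 signal, with marker shape giving the probe set's ending; the band is the central 90% and the grey line the median of all measured probe sets in each signal range, and dotted lines mark 2-fold. From 229221_at at 2.09 the CD44 points mostly step down with signal to 212063_at at 0.36. The exception is 204490_s_at at 1.11, which is brighter than 1557905_s_at at 1.09. At the dim end 217523_at lies at 2.04 and 1565868_at at -0.22.

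The ending of a probe set did not sort the differences. The 4 measured CD44 probe sets ending in _s_at ran from 0.51 to 1.23 with a median of 1.10, and the 2 ending in _x_at had a median of 1.002. The 4 with neither ending, which hold both the brightest and the 3 dimmest, ran from -0.22 to 2.09 with a median of 1.20. The 3 classes overlapped. For scale, the SD of a single probe set's log2 difference, taken from the 2 brightest of the probe sets clearing both floors in 5818 genes, was 0.36, and it was 0.21 over the 1718 genes whose 2 brightest probe sets both had a mean log2 signal of 9 to 13. The differences of the 7 bright CD44 probe sets had an SD of 0.33. These SDs hold probe noise and transcript forms and leave out variation between cultures.

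Among the 168 genes with at least 6 measured probe sets, CD44 had the fifth widest range of differences, 2.30 on the log2 scale from lowest to highest, and the eighth highest median. Both ranks are a description, because CD44 was chosen with its values in these arrays known. The rank of the range has 2 further limits. A range can only widen as probe sets are added, and only 5 of the other 167 genes had at least as many as the 10 of CD44. It also rests on CD44's lowest probe set, whose signals lay near the floor. Without that probe set the CD44 range was 1.72, which more of the other genes exceeded. The median width over the other 167 genes was 0.93. A negative r between signal and difference was found in 103 of those 167 genes (61.7%), and in 21 of the 31 with a median of at least 0.5. In 22 of these 31 the brightest probe set gave a difference smaller in size than the gene's median, as it did for CD44. The same was found in 69 of all 167 genes, and in 5 of the 13 with a median of at most -0.5. A negative r was also found in 10 of the 13 genes with a median of at most -0.5, where it means that brighter probe sets tended to be lowered more. CD44's own r over its measured probe sets was -0.17, and 89 of the 167 had one at least as low. Only 27 other genes had at least 5 probe sets over 500 in both arrays. In that group 2 had an r as low as CD44's and 4 a range as wide, and none had as steep a slope. A slope also depends on how large a gene's differences are, and only 3 of the 27 had a median of at least 0.5. In all 3 of these r was negative, and in 1 it was as low as CD44's.

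Because only 2 arrays exist, likeness to CD44 was taken as the distance in log2 units between genes placed by median and range of differences, over genes with at least 6 measured probe sets. The full range was used, so the number of probe sets and CD44's near-floor lowest probe set also shape these distances. The 5 nearest were RBM25, MTAP, NRP2, ANKH and BICD1. RBM25, an RNA-binding protein of splicing, had a median of 1.26 and a range of 2.50 (distance 0.27). MTAP, the enzyme that salvages methylthioadenosine, had a median of 1.22 and a range of 1.82 (distance 0.50). NRP2, a semaphorin and VEGF co-receptor, had a median of at least 1.01 and a range of 1.77, but all its probe sets were dim. The brightest had 142.7 in the stretched and 38.3 in the non-stretched array. Most of its other non-stretched signals were below the floor of 28.7 and were set to it. ANKH, a pyrophosphate transporter, and BICD1, a dynein adaptor, lay at distances of 0.56 and 0.80. Over all measured probe sets of a gene, r between signal and difference ran from 0.02 in ANKH to 0.86 in NRP2, against -0.17 in CD44. Where the non-stretched value is set to the floor, the difference must rise with the stretched signal. The r of NRP2 is therefore in part a product of the floor, while the measured CD44 probe sets all cleared both floors. RBM25 also had 1 near-floor probe set that was lower in the stretched array, 1557081_at at -0.70, and its other 5 went from 0.73 in the brightest to 1.81 in the dimmest.

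**Figure D3:**
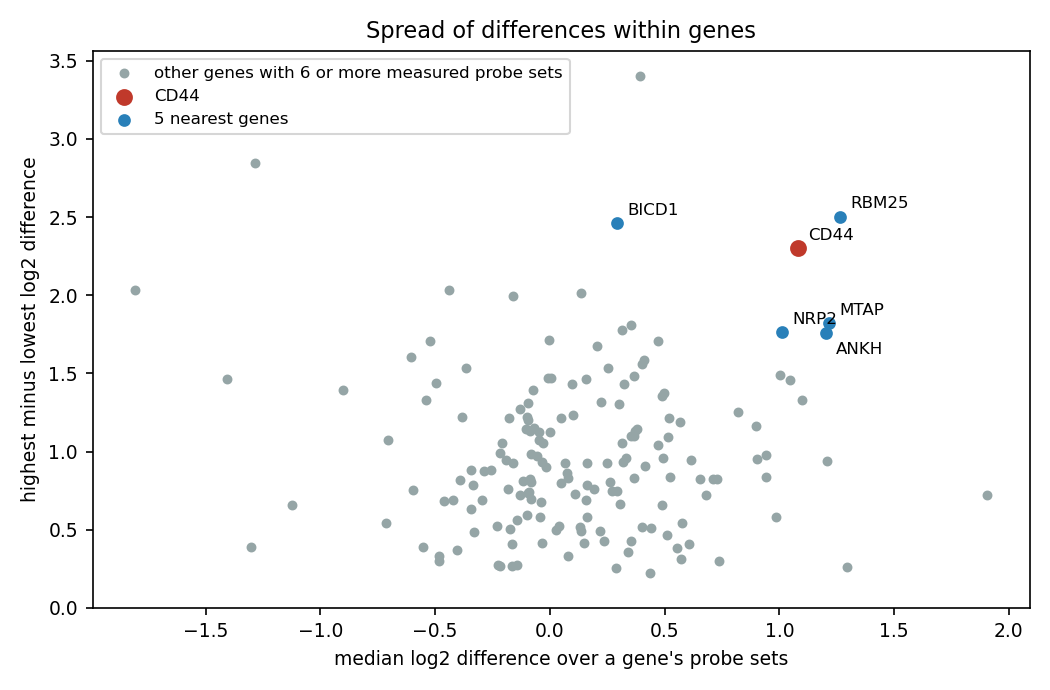
Median log2 difference over a gene's probe sets (horizontal) against the highest minus the lowest difference (vertical) for the 168 genes with at least 6 measured probe sets. CD44, at 1.08 and 2.30, lies among the widest ranges, next to RBM25. Without its lowest probe set, which is near the floor, the CD44 range is 1.72.

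Genes that act with CD44 were read from their brightest probe set. Over all 13473 measured genes, 7.79% were at least 2-fold higher in the stretched array and 7.54% were lower by as much, together 15.3%, with a median of 0.00. Of the enzymes that make and degrade hyaluronan, 7 were measured, and 3 were at least 2-fold higher while none was lower by as much, with a median of 0.82. That median is the value of HAS2, which the floor bounds. UGDH, HYAL2 and CEMIP2, the 3 members below 0, were at -0.34, -0.22 and -0.44. HAS3, a hyaluronan synthase, had 1221 in the stretched and 83.7 in the non-stretched array, 14.6-fold higher. Its other probe set, 1552980_at, had 72.0 in the stretched and 93.1 in the non-stretched array, so the 2 HAS3 probe sets disagree in sign. HAS2, another hyaluronan synthase, had 50.7 in the stretched and 10.97 in the non-stretched array, below the floor there and at least 1.77-fold higher. CEMIP, a protein that promotes hyaluronan breakdown, had 83.4 in the stretched and 22.8, also below the floor, in the non-stretched array, which makes it at least 2.91-fold higher, and the hyaluronidase HYAL3 had 118.7 in the stretched and 47.1 in the non-stretched array.

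Of the other hyaluronan-binding proteins, 10 were measured, of which 2 were at least 2-fold higher while none was lower by as much (median 0.19). TNFAIP6, which transfers heavy chains onto hyaluronan, had 1978 in the stretched and 642.9 in the non-stretched array, 3.08-fold higher, and its second probe set stood at 1.87 in log2 units. HMMR, a hyaluronan receptor that also serves the mitotic spindle, had 1519 in the stretched and 667.6 in the non-stretched array, with a second probe set at 1.70. C1QBP, a mitochondrial protein that also binds hyaluronan, stood at 0.82, and BCAN (brevican), a proteoglycan of the neural matrix, at -0.93. The other measured BCAN probe set, 242843_at, stood at 0.16, so the 2 disagree in sign. LYVE1, the lymphatic relative of CD44, was below the floor in both arrays.

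Ligands other than hyaluronan were mixed, with 2-fold or more between the arrays in 3 of 6 measured members, 1 upward and 2 downward. SPP1 (osteopontin), a secreted matrix phosphoprotein, had 11406 in the stretched and 12044 in the non-stretched array. FN1 (fibronectin), an adhesive matrix protein, had 1405 in the stretched and 3630 in the non-stretched array, and FGF2, a growth factor held by heparan-sulphate-bearing CD44 forms, had 644.1 in the stretched and 235.0 in the non-stretched array. LGALS9 (galectin-9) was at -1.13 and HBEGF, an EGF-family ligand, at -0.21.

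Linkers to cortical actin and signalling partners had a median of 0.03, and 2 of 18 measured members passed 2-fold, 1 in each direction. Counting any measured probe set, 5 of 18 passed, with EZR, RDX and NF2 added on the higher side. By the same count 21.1% of all measured genes passed, though the number of probe sets per gene differs. EZR (ezrin) had 6836 in the stretched and 5357 in the non-stretched array, 0.35 on the log2 scale, close to the value of the brightest CD44 probe set. RDX (radixin) and MSN (moesin) were at 0.31 and -0.04. NF2 (merlin), which competes with these linkers for the CD44 tail, was at 0.79. TIAM1, an exchange factor for Rac, had 447.9 in the stretched and 198.9 in the non-stretched array, and ANK2 (ankyrin) had 23.3, below the floor, in the stretched and 68.6 in the non-stretched array, at least 2.42-fold lower.

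Co-receptors and membrane partners had a median of -0.09, and 2 of 14 passed 2-fold, 1 in each direction. Counting any measured probe set, 3 of 14 passed, against 21.1% of all measured genes, with ERBB3 added on the lower side (-1.09). The EGF receptor EGFR had 1759 in the stretched and 699.8 in the non-stretched array, and the drug transporter ABCB1 had 161.2 in the stretched and 595.5 in the non-stretched array. ERBB3, a receptor of the same family, was at -0.96 and SLC3A2, a subunit of the cystine transporter that CD44 variant forms stabilise, at -0.85.

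Sheddases and gamma-secretase subunits, grouped with the metalloproteinase inhibitor TIMP1, lay mostly on the lower side. Of 11 measured, 9 were below 0, but only APH1B was at least 2-fold lower, and none was at least 2-fold higher. The median was -0.47. By another probe set MMP14 was also lower and PSEN2 higher by 2-fold or more. Each of these had 1 value below the floor, so MMP14 stood at -2.17 or lower and PSEN2 at 1.26 or higher. APH1B, a gamma-secretase subunit, had 52.9 in the stretched and 363.2 in the non-stretched array, and its second probe set stood at -2.20 in log2 units. NCSTN (nicastrin), another subunit, was at -0.98 and the metalloproteinase MMP7 at -0.68, and the CD44 sheddases ADAM10, ADAM17 and MMP14 were at -0.47, -0.50 and -0.51. PSEN2, a catalytic subunit, was at 0.65, and TIMP1, the other member above 0, was at 0.15.

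None of 16 measured splicing factors with a described effect on CD44 exons differed 2-fold in the brightest probe set (median 0.11), where 15.3% of all measured genes did. Counting any measured probe set, 8 of the 16 passed 2-fold, against 21.1% of all measured genes, though the number of probe sets per gene differs. These were TRA2B, SRSF1, SRSF3, SRSF10, HNRNPA1, PTBP1 and MBNL1, each with a highest value between 1.02 and 1.65, and ESRP1 on the lower side. ESRP1, the epithelial regulator that favours variable exons, had 1327 in the stretched and 2313 in the non-stretched array, -0.80 on the log2 scale, and its second probe set stood at -1.03. SRSF10, SRSF1 and HNRNPM were at 0.88, 0.57 and 0.55. No probe set of CD44 is assigned to a particular exon here, so these values cannot be set against exon use.

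Of 18 measured transcription factors with a described effect on CD44, 1 was at least 2-fold higher and 2 were at least 2-fold lower (median -0.09). Counting any measured probe set, 4 of 18 passed, against 21.1% of all measured genes, with ETS1 added on the higher side (1.37, and 0.68 in its brightest). FOSL1 had 1321 in the stretched and 102.0 in the non-stretched array. STAT3 had 1302 in the stretched and 3048 in the non-stretched array, and EGR1 had 947.4 in the stretched and 2153 in the non-stretched array. The other AP-1 subunits FOS, JUNB, JUND and JUN were at -0.78, -0.75, -0.29 and -0.27. The measured probe sets of JUN ran from -0.33 to 0.29.

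**Figure D4:**
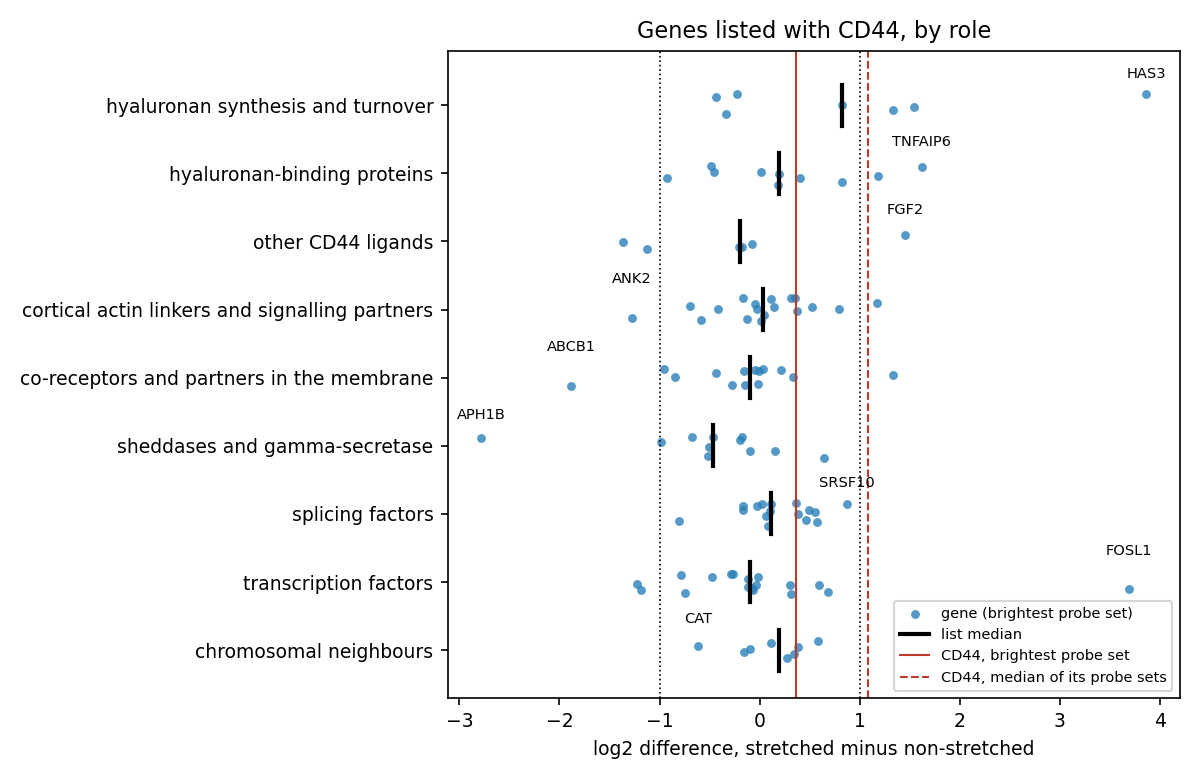
Log2 difference (stretched minus non-stretched) of each measured gene, by its brightest probe set, in 9 groups named on the vertical axis; black bars are group medians, dotted lines mark 2-fold, and the red lines are CD44's brightest probe set (solid, 0.36) and the median of its probe sets (dashed, 1.08). HAS3 and FOSL1 lie farthest to the right and APH1B farthest to the left.

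The genes beside CD44 on chromosome 11 did not differ 2-fold. Of the 5 protein-coding genes on each side, 8 were measured and ran from -0.61 (CAT, catalase) to 0.58 (APIP). Next to CD44 on one side, PDHX had 1817 in the stretched and 1393 in the non-stretched array, 0.38 on the log2 scale, and APIP, its neighbour, had 1953 in the stretched and 1306 in the non-stretched array. On the other side SLC1A2 had 31.1 in the stretched and 18.0 in the non-stretched array, near the floor, and PAMR1 was below the floor in both. FJX1 was at 0.34.

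Markers were read to check the label of the cells. All 9 airway epithelial markers were measured, with summed signals of 49509 in the stretched and 55333 in the non-stretched array. EPCAM, KRT8, KRT18 and KRT19 stayed within 2-fold, and CFTR, MUC1 and ELF3 were at least 2-fold lower. Of 7 fibroblast markers 3 were measured, with summed signals of 159.0 in the stretched and 199.9 in the non-stretched array, and COL3A1, LUM, PDGFRB and THY1 were below the floor in both. Of 5 endothelial markers only PECAM1 was measured, with 51.3 in the stretched and 57.7 in the non-stretched array. The leukocyte marker PTPRC, which all leukocytes carry, was below the floor in both arrays, while 5 others summed to 2031 in the stretched and 1763 in the non-stretched array. Most of that was LCP1, with 1536 in the stretched and 1526 in the non-stretched array, and CORO1A had 378.2 in the stretched and 90.8 in the non-stretched array. Which cells of the cultures carried CORO1A, and how it relates to the CD44 values, was not tested.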

How the data were processed

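The deposited table holds 1 signal intensity on a linear scale for each probe set and array. How they were summarised and scaled, and with which software, is not stated in the labels. Per the labels' protocols, biotin-labelled cRNA was made from 6 µg of total RNA. Values ran from 0.70 to 13794 in the stretched and from 0.66 to 17518 in the non-stretched array over 54613 non-control probe sets. They were used as deposited: the medians were 28.4 in the stretched and 28.7 in the non-stretched array, -0.02 apart on the log2 scale, and the 75th percentiles 0.11 apart. The 18 hybridisation spike-ins had a median difference of -0.11, which is the order of the scaling uncertainty. They ran from -0.23 to -0.03, opposite in sign to the 75th percentiles, which were higher in the stretched array. Scaling by the spike-ins was not among the alternatives.

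Gene names come from the annotation of the platform, with symbols updated by gene ID to RefSeq's: 41091 had 1 gene, 1801 several and 11721 none here. Signals below an array's median were set to it before taking log2, and probe sets above it in at least 1 array count as measured. A fold with 1 value at the floor is written "at least". Each gene is read from its brightest probe set (highest mean of the 2 log2 signals). With 1 array per condition there is no test. The gene, the 9 gene groups and the markers were chosen with earlier results of these data known. In each group the 4 largest differences are named, and some members, such as SPP1, EZR and ESRP1, are named whatever their value. One of the 4 largest in the linker group is not reported here. The computation (Python 3.11.15, pandas 2.3.3, statsmodels 0.14.6) was tested on simulated data. Alternatives are other floors, scalings, a loess trend and probe set classes.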

Additional observations from a re-analysis of the deposited data

How the results depend on the processing

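No paired analysis was possible because each condition has 1 array. Of 151 alternative values of 16 results, 117 stayed close to the reported one (within 0.36 on the log2 scale, 0.1 for r, or 1.5 times for a count). CD44's brightest probe set stayed between 0.26 and 0.38 and its median between 0.93 and 1.20. Dividing each array by its 75th percentile lowers every difference by 0.11. The r between signal and difference became 0.48 with no floor and 0.40 with a 25th percentile floor, which both add the 3 dimmest probe sets. It became -0.97 with a 75th percentile floor, -0.92 without 1565868_at and -0.94 over probe sets above 500, the last 2 chosen after seeing the data. The range of CD44 differences was 5.60 with no floor, 2.70 and 1.40 with a 25th and 75th percentile floor, 1.72 without 1565868_at and 0.87 above 500. With both the _x_at and _s_at endings left out, 2 of 4 CD44 probe sets were at least 2-fold higher.

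Over all probe sets, 7910 were at least 2-fold higher and 7278 lower with no floor, 4075 and 3424 with a 25th percentile floor, 947 and 609 at the 75th, and 1619 and 1180 without _x_at and _s_at, against 2466 and 1830 as reported. Genes at least 2-fold different among hyaluronan enzymes were 5 with no floor or the 25th percentile floor and 1 with the 75th or without _x_at and _s_at, against 3. Hyaluronan-binding proteins had 4 with no floor and 1 without _x_at and _s_at, against 2, and other ligands 5 and 0, against 3. Linkers had 0 with the 75th percentile floor, against 2. The group of sheddases, gamma-secretase subunits and TIMP1 had 0 there and 2 with 75th percentile scaling, loess or averaged probe sets, against 1. Splicing factors had 3 without _x_at and _s_at, against 0, and membrane partners 1 with averaged probe sets, against 2. Apart from these fewer or added probe sets, the cause was not tested. Signals near the floor limit the dim probe sets.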

Other observations

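Genes listed with CD44 differed in how their own probe sets were ordered, and the examples were chosen after their values were seen. EZR had 5 measured probe sets, and from the brightest to the dimmest they stood at 0.35, 0.49, 0.79, 0.95 and 1.24 on the log2 scale. The dimmest, 217230_at, had 421.0 in the stretched and 178.1 in the non-stretched array. RDX stood at 0.31 in its brightest probe set and at 1.16 and then 1.02 in the dimmer ones. PSEN2 stood at 0.65, 0.92 and at least 1.26 from bright to dim, the last with its non-stretched signal below the floor. EGFR stood at 1.33 in its brightest probe set and at 0.72, 1.11, 0.19 and at least 0.88 in dimmer ones. The last had its non-stretched signal below the floor. HNRNPM went from 0.55 in its brightest to 0.38 and -0.22. SRSF1 followed neither order: its brightest stood at 0.57 and 227164_at at 1.65. Its dimmest 2 measured probe sets, below the floor in the non-stretched array, stood at no less than 0.31 and 0.28. Among genes that were lower in the stretched array, the 4 bright FN1 probe sets lay between -1.48 and -1.37, and the dim 214701_s_at lay at -0.84.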
